A study of Mus musculus with 6 samples.

Results

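The genes described here code for the carriers that move neurotransmitters across membranes, together with their closest relatives. They were chosen by name alone, as every gene symbol that begins with Slc1a, Slc6a, Slc17a, Slc18a or Slc32a and ends in a number, and 38 such genes of the 24946 named in the deposited files are described. Slc6 gave 18 of them, Slc17 gave 9, Slc1 gave 7, Slc18 gave 3 and Slc32 gave 1. Not all of them carry a transmitter: 21 are known to carry GABA, glutamate, glycine, acetylcholine, a monoamine or a nucleotide, and the other 17 carry amino acids, taurine, creatine, sialic acid or organic anions, or have no known substrate. The label of neurotransmitter transporters therefore holds for the 21, and both kinds are given below.

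The libraries came from the lateral septum, a forebrain region, of Neurotensin-Cre mice of the strain C57Bl6J, in which Cre recombinase is made under the control of the neurotensin gene Nts. All mice, which gave both kinds of library, had received a Cre-dependent virus. The sample labels name it AAV5-Introvert-NBL10, while the study's methods name AAV5-Introvert-GFPL10a. The study describes its product as a GFP-tagged ribosomal protein, and the difference in name is not explained in the sources used here. The mice formed 3 pools of 4 to 6 animals and were killed 3 or 4 weeks after the virus. IP is the RNA that came down with an antibody against EGFP from the pooled tissue, and Input is RNA saved from the same pool before the pull-down, so that there were 3 IP libraries and 3 Input libraries. The sample titles give only a replicate number, and IP and Input of the same number were taken as the same pool. The methods of the study describe adult mice of both sexes without giving the make-up of each pool, and the libraries analysed include none from mice without Cre or without virus. The tag is made in every septal cell that has Cre and takes up the virus, a set that can hold several kinds of Nts neuron.

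Vesicular transporters load a transmitter into synaptic vesicles and so say which transmitter a neuron can release: Slc32a1 (VGAT) loads GABA and glycine, Slc17a6, Slc17a7 and Slc17a8 (VGLUT2, VGLUT1 and VGLUT3) load glutamate, Slc18a1 and Slc18a2 (VMAT1 and VMAT2) load monoamines, and Slc18a3 (VAChT) loads acetylcholine. Plasma membrane transporters take the transmitter back up after release, using the sodium gradient, and several of them sit mainly on astrocytes. The neurons of the lateral septum are mostly GABAergic, and they receive glutamatergic fibres from the hippocampus.

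For each gene and library the authors deposited 1 signal value, a number of reads scaled by DESeq2 and not logged. The values of a library summed to 24958423, 22781827 and 23570585 in IP 1 to 3, and to 17045561, 17129150 and 16828024 in Input 1 to 3. A single read was worth about 2.25 to 2.3 in IP libraries and 1.72 to 1.84 in Input libraries. Values near these are close to the limit of what could be seen, and the lowest above 0 were 0.759 to 1.15. Of the tested genes taken as lateral septum markers, 10 of 10 were higher in IP. Nts had 2251, 3346 and 1783 in IP libraries against 80, 150 and 210 in Input libraries. That list, like the other marker lists, was written with earlier results of these data known. It holds Nts, which drives Cre, and genes the study reported as enriched. Its count is therefore no check on the pull-down. All 10 tested astrocyte markers, all 9 oligodendrocyte markers and all 8 microglia markers were lower, while 12 of 16 pan-neuronal markers were higher and 2 lower. None of these marker lists was at 0 in IP. Their summed values were 8742 to 12844 in IP against 36271 to 43283 in Input for astrocytes, 14330 to 22699 in IP against 103266 to 147937 in Input for oligodendrocytes, and 483 to 894 in IP against 3212 to 4853 in Input for microglia. Ttr, a gene of the choroid plexus, stood far higher in pool 3 than in the other pools, with 1699 in IP 3 and 12850 in Input 3.

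The promoters of 4 members on which the results turn are shown here because they mark both directions of change: the vesicular GABA and monoamine transporters, higher in IP, and the vesicular glutamate transporter Slc17a7 and the astrocytic glutamate carrier Slc1a3, lower in IP. Each is the 250 bases before the RefSeq start of the gene on GRCm38.p6, read 5′ to 3′ on the gene's strand. Slc32a1 lies at chr2:158610508-158610757 on the plus strand, Slc18a2 at chr19:59260628-59260877 on the plus strand, Slc17a7 at chr7:45163671-45163920 on the plus strand and Slc1a3 at chr15:8710808-8711057 on the minus strand. Capitals mark matches, on either strand, to a GC box or a TATA box.
Slc32a1: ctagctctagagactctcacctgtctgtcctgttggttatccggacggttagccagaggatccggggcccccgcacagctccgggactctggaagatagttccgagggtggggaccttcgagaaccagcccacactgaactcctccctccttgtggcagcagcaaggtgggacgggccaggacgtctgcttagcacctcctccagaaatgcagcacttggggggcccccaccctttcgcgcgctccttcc
Slc18a2: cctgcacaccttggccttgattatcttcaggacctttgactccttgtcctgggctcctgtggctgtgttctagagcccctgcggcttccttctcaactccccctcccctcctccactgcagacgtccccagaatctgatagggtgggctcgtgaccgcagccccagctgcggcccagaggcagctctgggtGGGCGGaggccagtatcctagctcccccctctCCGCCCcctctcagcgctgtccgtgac
Slc17a7: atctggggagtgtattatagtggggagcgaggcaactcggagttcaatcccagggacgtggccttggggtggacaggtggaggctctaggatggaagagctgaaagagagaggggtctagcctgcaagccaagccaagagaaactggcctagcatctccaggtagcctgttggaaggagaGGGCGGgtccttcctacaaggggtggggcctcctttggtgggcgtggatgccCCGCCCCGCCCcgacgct
Slc1a3: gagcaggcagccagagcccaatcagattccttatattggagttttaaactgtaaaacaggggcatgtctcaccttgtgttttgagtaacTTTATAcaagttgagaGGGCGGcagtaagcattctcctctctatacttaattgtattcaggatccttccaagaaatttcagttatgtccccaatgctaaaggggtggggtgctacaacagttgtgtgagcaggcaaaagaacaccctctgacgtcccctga

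Searched on both strands, the GC box GGGCGG was in 32.7% of all 32851 RefSeq promoters of this length, the TATA box TATAAA in 12.4%, the E-box CACGTG in 6.02%, the homeodomain core TAATTA in 4.84%, the cyclic AMP response element TGACGTCA in 1.55%, and the full palindromic site of nuclear factor I in 0.0365%. The promoter of Slc18a2 held 2 GC boxes, that of Slc17a7 held 3, that of Slc1a3 held 1 GC box and 1 TATA box, and that of Slc32a1 held none of the 6 motifs. The last 2 GC boxes of Slc17a7 overlap. These letters describe the windows and say nothing of which factors bind there. Promoters were found for 28 of the 38 genes, 18 of them among the tested genes, and the promoters and motifs were picked after the values below had been seen.

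The question asked of these data was which transporter RNAs were higher on the tagged ribosomes than in the whole tissue. A gene was tested if its value reached 10 in at least 3 of the 6 libraries, which 23 of the 38 members did and 15 did not. "Higher" and "lower" mean an adjusted p under 0.05 in limma over all 14859 tested genes, and "enriched" and "depleted" also ask for a change of over 2-fold. Of the 23 tested members, 4 were higher in IP (17.4%, against 31.4% of all tested genes) and 10 were lower (43.5%, against 32.2%). Calls in either direction took in 14 of the 23 (60.9%, against 63.7% of all tested genes), so that calls were about as common among the transporters as elsewhere. Enriched were 2 members (8.7%, against 12.6%), and depleted were 6 (26.1%, against 17.2%). Without IP 2, and likewise without pool 1, only 1 member was enriched. Results were also computed with other scalings between libraries, by their sums (library size), by their upper quartiles or so that the pan-neuronal genes stood level, and with an offset for transcript length. Enriched members numbered 0 with library size or the pan-neuronal genes and 1 with the upper quartile. The members had a median log2 fold change of -0.45, against -0.06 for all tested genes.

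The 4 higher members were Slc32a1, Slc18a2, Slc1a1 and Slc6a16. The depleted members were Slc17a7, Slc6a11, Slc6a13, Slc1a2, Slc1a3 and Slc6a9, and the members lower by less than 2-fold were Slc17a6, Slc6a7, Slc6a15 and Slc1a4. All 3 IP libraries lay above all 3 Input libraries for 5 members (21.7%, against 34.2% of all tested genes) and below them for 10 (43.5%, against 35.4%). The groups overlapped for the other 8. By role, 2 of the 6 tested vesicular transporters were higher and 2 lower. Of the 8 tested plasma membrane transmitter transporters, 1 was higher and 5 lower. Over all tested genes, 31.4% were higher and 32.2% lower.

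**Figure D1:**
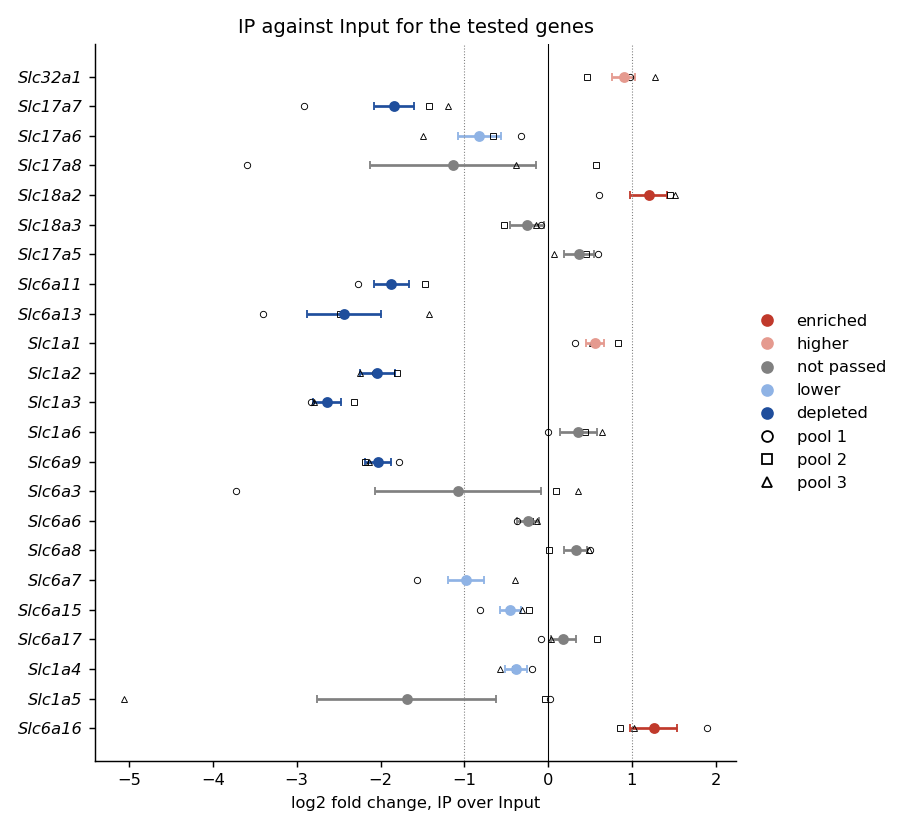
Log2 fold change, IP over Input, of each of the 23 tested genes as filled points with bars of 1 standard error, SE, from limma, with the change within each pool as open symbols and the 2-fold limits as dotted lines. Slc18a2 and Slc6a16 are the 2 enriched genes, and Slc1a3 has the most negative change at -2.64.

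**Figure D2:**
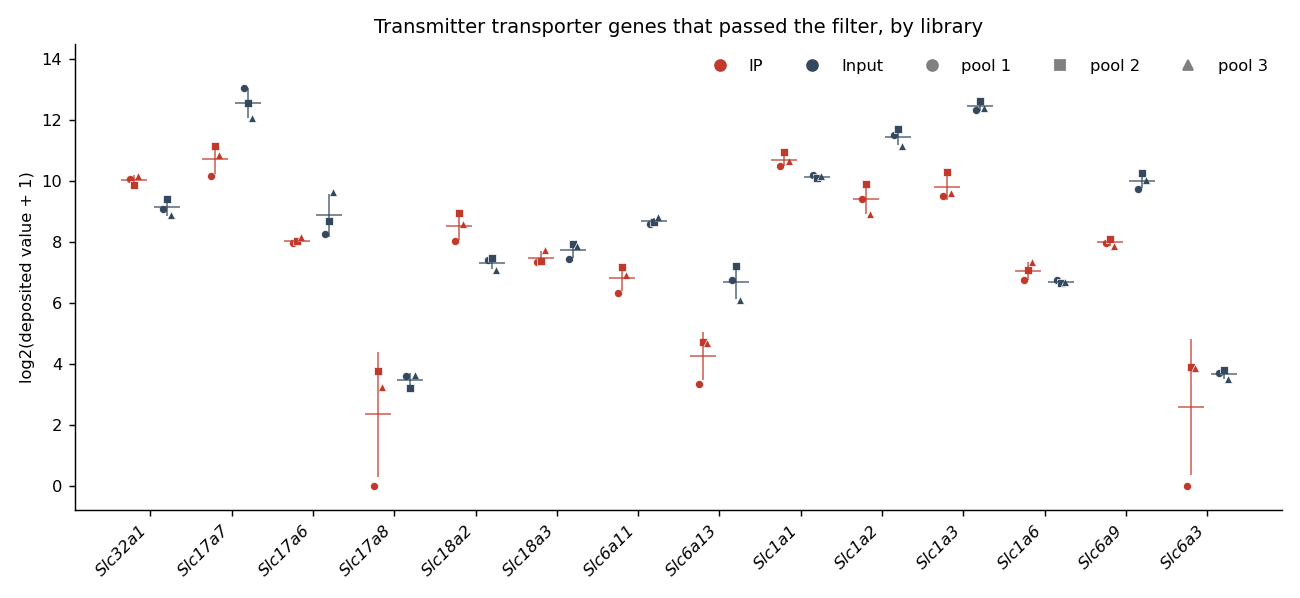
Deposited value of the 14 tested transmitter transporters in every library, on a log2(value + 1) axis, with IP left of Input, group means as horizontal lines and 1 SD as vertical lines. IP and Input do not overlap for 10 of these genes, 3 of them with IP above and 7 with IP below. Of all tested genes, 34.2% had every IP library above and 35.4% had every IP library below.

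Slc32a1, which loads GABA into vesicles, was higher in IP, and the glutamate loaders Slc17a7 and Slc17a6 were lower. Slc32a1 had 1083, 939 and 1140 in IP libraries against 547, 684 and 471 in Input libraries. Every IP library lay above every Input library, and the log2 fold change was 0.90 (standard error, SE, 0.14, adjusted p 1.2e-04 in limma), or 1.87-fold. It was 0.42 with library size (adjusted p 0.0175 in limma), and the call was lost with the pan-neuronal genes held level (0.34, adjusted p 0.0525). Slc32a1 shares 697 exon bases with an antisense gene, Gm14205, and whether the authors counted by strand is not given in the sources used here. Slc17a7, typical of cortical and hippocampal excitatory neurons, had 1143, 2258 and 1870 in IP libraries against 8572, 6028 and 4309 in Input libraries. It was depleted with a log2 fold change of -1.84 (SE 0.24, adjusted p 2.8e-05 in limma), and the change within pools was -2.91, -1.42 and -1.20. Pool 1 gave both the lowest IP value and the highest Input value. The summed value of the cortical glutamatergic markers was 966, 1508 and 1592 in IP 1 to 3 and 3806, 2548 and 2088 in Input 1 to 3, which is also most unequal in pool 1. Their part in the fall of Slc17a7 was not tested. IP and Input are taken from the same tissue. In bulk RNA of this kind, fewer tagged cells of a type and less RNA on tagged ribosomes per cell cannot be told apart. Nor can RNA of untagged cells carried through the pull-down be set apart.

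Slc17a6, more typical of thalamic, hypothalamic and brainstem excitatory neurons, had 247, 262 and 283 in IP libraries against 307, 415 and 797 in Input libraries. The IP values were close together, while the Input values were spread out and highest in pool 3. The log2 fold change was -0.82 (SE 0.26, adjusted p 0.0159 in limma). Without Input 3 it was -0.44 (adjusted p 0.0622 in limma), without pool 3 it was -0.49 (adjusted p 0.0683), and with an offset for transcript length it was -0.50 (adjusted p 0.136). Without a trend in the variance the adjusted p was 0.0846 in limma, and the call was lost under each of these settings. Slc17a8, the glutamate loader found in scattered neurons that often release a further transmitter, had 0, 12.7 and 8.44 in IP libraries against 11.1, 8.23 and 11.3 in Input libraries. The groups overlapped, the values were near those of a few reads, and the log2 fold change of -1.13 (SE 0.99, adjusted p 0.33 in limma) came from IP 1, since without that library it was 0.04.

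Levels of different genes were compared after division by the length of the longest transcript in kilobases, so shares and orders depend on that length. Within the sum of the vesicular GABA and glutamate transporters, Slc32a1 made up 46.2%, 28.5% and 36.4% in IP libraries against 6.09%, 10.1% and 9.14% in Input libraries. Slc17a7 made up 46.7%, 65.9% and 57.3% in IP libraries against 91.5%, 85.6% and 80.3% in Input libraries. The share of Slc17a6 overlapped between the groups, at 6.2% ± 0.869 in IP and 5.64% ± 4.28 in Input (SD, n = 3 each), and Slc17a8 stayed under 1% in every library. Slc17a7 RNA remained, per length, above Slc32a1 in every IP library, though in IP 1 only at 46.7% against 46.2%. Slc17a7 was lower than in Input, yet it had the highest level per kilobase among the members described in IP. How much of its IP value was RNA of untagged cells carried through the pull-down was not tested. Its place above Slc32a1 is therefore no measure of what the tagged cells make.

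**Figure D3:**
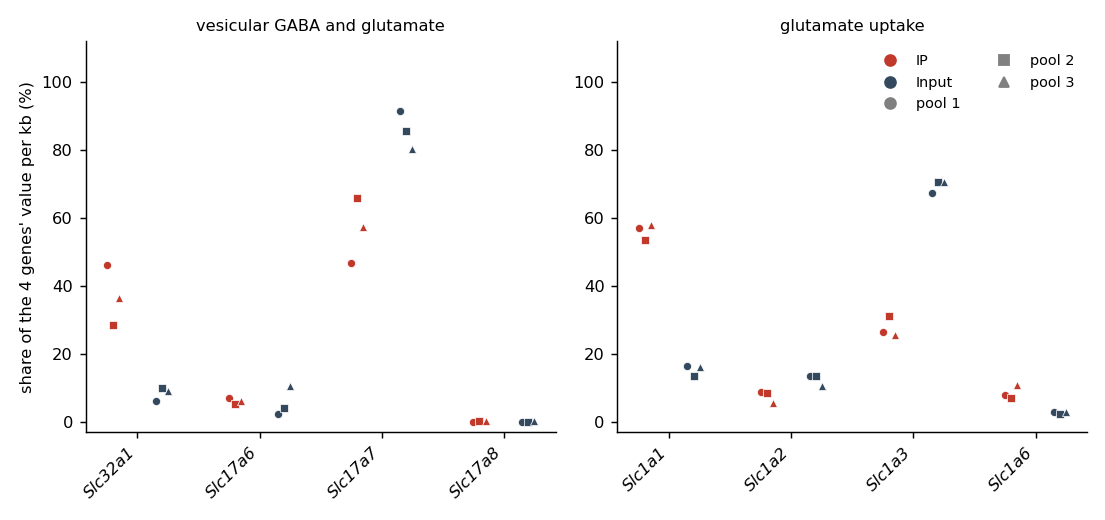
Share of each gene in the summed value per kilobase of its group of 4 genes, in percent, for every library, with IP left of Input. Slc32a1 is at 28.5% or more in every IP library and at 10.1% or less in every Input library, and Slc1a1 is the largest of the glutamate uptake genes in IP while Slc1a3 is the largest in Input.

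A ratio between 2 genes of the same library does not depend on the scaling between libraries. Ratios were taken for 8 pairs as differences of log2(value + 1), and the smallest p that an exact permutation test of 3 against 3 libraries can give is 0.1, so none could pass. The log2 ratio of Slc32a1 to Slc17a7 was -0.08, -1.27 and -0.71 in IP libraries against -3.97, -3.14 and -3.19 in Input libraries, a difference of 2.75 (exact two-sided permutation p 0.1, adjusted 0.133 over the 8 pairs). The ratio of Slc32a1 to Slc17a6 was 2.13, 1.84 and 2.01 in IP libraries against 0.83, 0.72 and -0.76 in Input libraries, a difference of 1.73 with the same p. The ratios of Slc32a1 to Slc17a8 and of Slc17a6 to Slc17a7 overlapped between the groups, with differences of 2.04 (exact permutation p 0.2, adjusted 0.229) and 1.02 (exact permutation p 0.3, adjusted 0.3). Without pool 1 these fell to 0.77 and 0.23, while the first was 3.12 without pool 2 and the second 1.67 without pool 3.

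**Figure D4:**
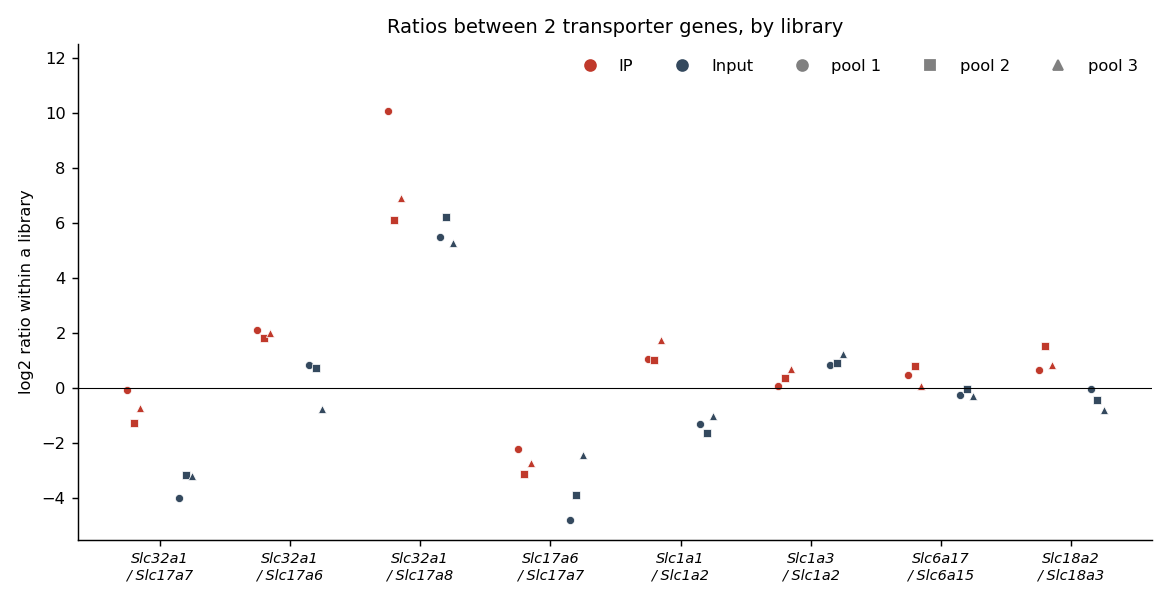
Log2 ratio of (value + 1) between 2 transporter genes within each library, with IP left of Input for each of the 8 pairs. IP and Input are apart for 6 of the pairs and overlap for Slc32a1 over Slc17a8 and Slc17a6 over Slc17a7.

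Genes that make and break down GABA moved in both directions. Gad1 and Gad2, the enzymes that make GABA, were higher in IP, at 16246 ± 811 in IP and 10109 ± 1048 in Input for Gad1 and 10249 ± 272 in IP and 6072 ± 185 in Input for Gad2 (SD, n = 3 each). Their log2 fold changes, 0.69 (SE 0.09) and 0.76 (SE 0.08), stood near that of Slc32a1. Abat, which breaks GABA down and is strong in astrocytes as well as neurons, and Aldh9a1 were lower, with log2 fold changes of -0.92 (SE 0.11) and -0.61 (SE 0.15), and Aldh5a1 did not pass. All 7 genes of the GABAergic neuron list, which holds Gad1 and Gad2 too, were higher, with a median of 0.88. Of all tested genes, 31.4% were higher. These changes are under the authors' scaling, and other scalings lowered that of Slc32a1.

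Slc18a2, which loads dopamine, serotonin, noradrenaline and histamine, was enriched. It had 260, 490 and 385 in IP libraries against 170, 177 and 133 in Input libraries. All IP libraries lay above all Input libraries, with the smallest gap in pool 1, where the log2 change was 0.61 against 1.46 and 1.52 in pools 2 and 3. The log2 fold change was 1.20 (SE 0.22, adjusted p 4.5e-04 in limma), or 2.3-fold, and its adjusted p stayed under 0.05 in all 21 alternatives, at 0.64 to 1.49. It was no longer over 2-fold with library size (0.72), the upper quartile (0.98), the pan-neuronal genes held level (0.64) or without IP 2 (0.99). The other monoamine loader, Slc18a1, had 6.87, 0 and 0 in IP libraries against 1.72, 0 and 13.7 in Input libraries and was not tested. Slc18a2 shares 111 exon bases with an antisense gene, Gm29261, with the same limit on strand as for Slc32a1.

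Genes that make monoamines did not all move in 1 direction. Of 10 tested genes for making, breaking down or clearing monoamines, 1 was higher and 4 lower, against 31.4% and 32.2% of all tested genes. Their median log2 fold change was -0.44. Th, which makes the precursor of dopamine, had 592, 404 and 585 in IP libraries against 393, 343 and 446 in Input libraries, so that the groups overlapped, and its adjusted p in limma was just under the threshold at a log2 fold change of 0.41 (SE 0.17). Ddc, the next enzyme for dopamine and serotonin, was depleted at -1.20 (SE 0.16), and Hdc, which makes histamine, at -2.12 (SE 0.30). Tph2, which makes the precursor of serotonin in neurons, had 43.8, 20.6 and 18.1 in IP libraries against 15.4, 11 and 10.3 in Input libraries and did not pass (log2 fold change 1.02, SE 0.52, adjusted p 0.104 in limma). Maoa, which breaks monoamines down, was lower at -0.89 (SE 0.15). Dbh, Tph1, Fev and En1 had values too low to test.

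The plasma membrane monoamine transporters were near the limit of detection. Slc6a3, the dopamine transporter, had 0, 13.8 and 13.5 in IP libraries against 12.1, 12.9 and 10.3 in Input libraries. Its log2 fold change of -1.08 (SE 0.99, adjusted p 0.355 in limma) rested on the 0 of IP 1 and was 0.21 without that library. Slc6a4, the serotonin transporter, had 0, 2.3 and 6.74 in IP libraries against 5.2, 0 and 0 in Input libraries and was not tested, and Slc6a2, the noradrenaline transporter, was listed at 0 in all 6 libraries.

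Slc18a3, the acetylcholine loader, had 162, 166 and 211 in IP libraries against 173, 241 and 233 in Input libraries. The groups overlapped, and the log2 fold change of -0.25 (SE 0.20, adjusted p 0.268 in limma) did not pass. It passed as lower with library size (-0.73, adjusted p 0.00666 in limma), the upper quartile (-0.48, adjusted p 0.0466) and the pan-neuronal genes held level (-0.82, adjusted p 0.00475). Of the 4 tested genes for making, breaking down or taking up acetylcholine or its choline, 1 was higher and 3 lower. Over all tested genes the shares were 31.4% and 32.2%. Ache, which breaks acetylcholine down, was higher, with 2938, 2787 and 3184 in IP libraries against 2181, 2496 and 2385 in Input libraries (log2 fold change 0.34, SE 0.09, adjusted p 0.00664 in limma). Bche, a related esterase, had 0, 0 and 4.57 in IP libraries against 25.1, 42.1 and 38.6 in Input libraries and was depleted at -4.32 (SE 0.86). It reached the filter only through Input, and with IP values this close to 0 the size of its change is not firm. A pair of genes that mark cholinergic neurons was depleted too: Chat, which makes acetylcholine, had 113, 39.2 and 71.5 in IP libraries against 184, 194 and 243 in Input libraries, and Slc5a7, which takes up choline, had 25.3, 42.8 and 25 in IP libraries against 140, 159 and 154 in Input libraries. The log2 fold changes of Chat and Slc5a7 were -1.58 (SE 0.32, adjusted p 9.6e-04 in limma) and -2.29 (SE 0.29, adjusted p 2.0e-05 in limma), and 4 of 5 tested cholinergic neuron markers were lower. Slc18a3 is a gene of a single exon that sits inside an intron of Chat on the same strand, at chr14:32462438-32464850 on mm10, and unspliced Chat RNA over this intron could be counted with it. The share of such reads was not tested. The log2 ratio of Slc18a2 to Slc18a3 was 0.68, 1.55 and 0.86 in IP libraries against -0.03, -0.44 and -0.80 in Input libraries, a difference of 1.45 (exact permutation p 0.1, adjusted 0.133). Slc17a9, the nucleotide loader, had 0 in all IP libraries against 1.75, 0 and 1.71 in Input libraries and was not tested.

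Slc6a11 and Slc6a13, which take up GABA, were depleted in IP. Slc6a11, an astrocytic GABA carrier, was depleted 3.66-fold, with 79.3, 144 and 121 in IP libraries against 387, 401 and 447 in Input libraries (log2 fold change -1.87, SE 0.21, adjusted p 7.8e-06 in limma). Slc6a13, a GABA and taurine carrier of the meninges and blood vessels, was depleted 5.41-fold, with 9.07, 25.4 and 24.6 in IP libraries against 106, 146 and 67.5 in Input libraries (log2 fold change -2.44, SE 0.44, adjusted p 3.7e-04 in limma). Slc6a12, which carries betaine and GABA, was listed at 0 in all 3 IP libraries against 20.9, 7.36 and 12 in Input libraries, too low to be tested.

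Beside Slc6a11 and Slc6a13 stand the markers of other cells. On the log2 scale the median change was -2.47 for the astrocyte list and -2.33 for the meningeal fibroblast list, whose summed value was 97.6 to 124 in IP libraries against 361 to 466 in Input libraries. Of 10 tested endothelial and mural markers, 5 were lower, against 32.2% of all tested genes, and 5 did not pass. The list had a median of -1.55 and a summed value of 380 to 787 in IP libraries against 962 to 1418 in Input libraries. Its largest changes were those of Slco1a4 at -4.88 (SE 0.78) and Ly6c1 at -3.57 (SE 0.53), both with IP values under 10. Among the other markers, Pdgfrb of mural cells was at -2.60 (SE 0.41), while Rgs5, also of mural cells, was at -0.10 (SE 0.32) and did not pass. In the fibroblast list the largest changes were those of Lum at -3.60 (SE 0.93) and Col1a1 at -3.02 (SE 0.92), each listed at 0 in IP 3. Col1a2, a collagen that defines fibroblasts, had 11.1, 18.5 and 17.7 in IP libraries against 75.9, 74.1 and 74.8 in Input libraries. The part of these cells in the values of Slc6a11 and Slc6a13 was not tested. Slc6a12 and Slc6a13 lie 5342 bases apart on chromosome 6.

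Among the carriers for glutamate uptake, the neuronal Slc1a1 was higher in IP and the astrocytic Slc1a2 and Slc1a3 were depleted. Slc1a1 (EAAC1) had 1452, 1966 and 1631 in IP libraries against 1165, 1098 and 1135 in Input libraries. The groups did not overlap, and the log2 fold change was 0.56 (SE 0.11, adjusted p 9.6e-04 in limma). That call was lost when libraries were scaled to library size (log2 fold change 0.08, adjusted p 0.61 in limma) or on the pan-neuronal genes (-0.004, adjusted p 0.981). Slc1a1 shares 2631 exon bases with the gene 4430402I18Rik on the opposite strand, which had 131, 155 and 175 in IP libraries against 121, 129 and 119 in Input libraries and did not pass.

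Slc1a3 (GLAST), a carrier of astrocytes, showed the most negative log2 fold change of the 23 tested members. It had 731, 1257 and 788 in IP libraries against 5202, 6271 and 5440 in Input libraries, 6.25-fold lower (log2 fold change -2.64, SE 0.17, adjusted p 7.0e-08 in limma). Slc1a2 (GLT-1), the main glutamate carrier of forebrain astrocytes, had 685, 964 and 483 in IP libraries against 2887, 3370 and 2278 in Input libraries, 4.11-fold lower (log2 fold change -2.04, SE 0.21, adjusted p 2.7e-06 in limma). Slc1a2 shares 189 exon bases with the antisense gene Gm13872, which had 0, 2.31 and 2.28 in IP libraries against 30.9, 34.8 and 17.1 in Input libraries. Both carriers were highest in IP 2 among the IP libraries, and so was the summed value of the astrocyte markers, with 9426, 12844 and 8742 in IP 1 to 3. Whether astrocyte RNA carried through the pull-down makes up their IP values was not tested. The log2 ratio of Slc1a3 to Slc1a2 was 0.09, 0.38 and 0.71 in IP libraries against 0.85, 0.90 and 1.26 in Input libraries, a difference of -0.61 (exact permutation p 0.1, adjusted 0.133).

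Slc1a6 (EAAT4), known best from Purkinje cells, had 106, 135 and 161 in IP libraries against 106, 99.5 and 103 in Input libraries. IP 1 was level with the Input libraries, and the log2 fold change of 0.36 (SE 0.22, adjusted p 0.177 in limma) did not pass. Slc1a7, the glutamate carrier of the retina, was listed at 0 in all 6 libraries. Per kilobase, Slc1a1 made up 57.1%, 53.4% and 58% of Slc1a1, Slc1a2, Slc1a3 and Slc1a6 in IP libraries against 16.5%, 13.5% and 16.1% in Input libraries. Slc1a3 made up 26.3%, 31.2% and 25.6% in IP libraries against 67.3%, 70.6% and 70.5% in Input libraries. The log2 ratio of Slc1a1 to Slc1a2 was 1.29 ± 0.40 in IP and -1.31 ± 0.31 in Input (SD, n = 3 each), a difference of 2.60 (exact permutation p 0.1, adjusted 0.133).

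The genes of the glutamate and glutamine cycle moved in both directions. Of 9 tested genes, 3 were higher and 4 lower, against 31.4% and 32.2% of all tested genes, with a median of -0.32. Glul, which makes glutamine in astrocytes, was depleted, with 893, 1233 and 747 in IP libraries against 2664, 3239 and 3027 in Input libraries. Slc38a3, which exports glutamine from astrocytes, had the most negative log2 fold change of the list, -2.82 (SE 0.31, adjusted p 5.3e-06 in limma). Slc38a1, which takes glutamine into neurons, was higher at 0.28 (SE 0.09), Got1, which interconverts glutamate and aspartate, at 0.44 (SE 0.08) and Gls2, a glutaminase, at 0.51 (SE 0.15). Slc38a2, also a glutamine carrier of neurons, was lower at -1.17 (SE 0.13). Slc38a7, a further carrier of the list, did not pass at -0.46 (SE 0.22, adjusted p 0.0767 in limma).

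Slc6a9 (GLYT1), the glycine carrier of astrocytes and of some glutamatergic neurons, was depleted 4.09-fold. It had 251, 272 and 235 in IP libraries against 861, 1233 and 1041 in Input libraries, with a log2 fold change of -2.03 (SE 0.15, adjusted p 1.6e-07 in limma) that was alike in the pools, at -1.78, -2.18 and -2.14. Part of its exons are shared with genes on the opposite strand, 1429 bases with Ccdc24, 511 with Gm17114 and 46 with B4galt2. Ccdc24 was itself low, at 15.8, 23.1 and 6.7 in IP libraries against 43.7, 46 and 39.3 in Input libraries. Slc6a5 (GLYT2), which marks glycinergic neurons of the brainstem and spinal cord, was listed at 0 in all 6 libraries, and no ratio to it was taken. Of 8 tested genes that handle glycine and serine, 5 were lower and 1 higher, against 32.2% and 31.4% of all tested genes. Slc7a10, an astrocytic exchanger of glycine and serine, had a log2 fold change of -2.33 (SE 0.21), while Phgdh, the first enzyme of serine synthesis, and Gldc, which cleaves glycine, were both at -2.21 (SE 0.16 and 0.26). The single higher gene was Gcsh, a further part of the glycine cleavage system, at 0.89 (SE 0.09).

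Of the 17 carriers of other substrates, 9 were tested: 1 was enriched, 3 were lower by less than 2-fold and 5 did not pass, with a median of -0.24. Of all tested genes, 12.6% were enriched and 32.2% were lower by any amount, with a median of -0.06. Slc6a16, a relative of the amino acid carriers with no known substrate, had 140, 104 and 128 in IP libraries against 36.8, 57.1 and 62.3 in Input libraries. The groups were well apart, with a log2 fold change of 1.26 (SE 0.28, adjusted p 0.00162 in limma), or 2.4-fold. Its adjusted p stayed under 0.05 in all 21 alternatives, at 0.70 to 1.46, but the change was not over 2-fold with library size (0.79), the pan-neuronal genes held level (0.70) or without pool 1 (0.94). Its level was low, 43.3 ± 6.39 per kilobase in IP and 18.2 per kilobase in Input. Slc6a16 lies 64942 bases from Slc17a7 on chromosome 7, on the same strand, and the 2 genes changed in opposite directions.

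Slc6a7, the proline carrier of excitatory nerve endings, had 135, 170 and 190 in IP libraries against 401, 336 and 249 in Input libraries. Its log2 fold change of -0.98 (SE 0.21, adjusted p 0.00116 in limma) was just under 2-fold, and the changes within pools, -1.56, -0.98 and -0.39, ran in the same order of pools as those of Slc17a7. Slc6a15, a carrier of branched-chain amino acids in neurons, had 518, 623 and 679 in IP libraries against 910, 730 and 839 in Input libraries. It was lower, with a log2 fold change of -0.45 (SE 0.13, adjusted p 0.0101 in limma), and the call was lost without Input 1 (-0.38, adjusted p 0.0508 in limma) and without pool 1 (-0.27, adjusted p 0.116). Its close relative Slc6a17, a carrier of synaptic vesicles, had 721, 1078 and 717 in IP libraries against 764, 721 and 695 in Input libraries and did not pass (log2 fold change 0.18, SE 0.15, adjusted p 0.311 in limma). Without IP 2 that value was -0.01. Slc6a17 passed as higher with the length offset (0.65, adjusted p 0.0012 in limma) and as lower with the pan-neuronal genes held level (-0.38, adjusted p 0.049). The log2 ratio of Slc6a17 to Slc6a15 differed by 0.63 between IP and Input (exact permutation p 0.1, adjusted 0.133).

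Slc1a4, a carrier of alanine and serine found in astrocytes and neurons, had 507, 558 and 500 in IP libraries against 579, 733 and 743 in Input libraries, with a log2 fold change of -0.38 (SE 0.13, adjusted p 0.0205 in limma). This call was among the least firm, since it was lost without IP 3 (-0.35), without Input 2 (-0.33), without Input 3 (-0.32), without pool 2 (-0.38) and without pool 3 (-0.29). Slc1a5, the related glutamine carrier of dividing cells, had 26.8, 39.4 and 0 in IP libraries against 26.4, 40.6 and 32.4 in Input libraries and did not pass (adjusted p 0.181 in limma). Its log2 fold change of -1.69 (SE 1.07) came from the 0 of IP 3, as the changes within pools 1 and 2 were 0.02 and -0.04.

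Slc6a6, the taurine carrier, had 758, 1037 and 919 in IP libraries against 980, 1209 and 1007 in Input libraries, and Slc6a8, the creatine carrier, had 451, 393 and 457 in IP libraries against 320, 391 and 325 in Input libraries. Neither passed, at log2 fold changes of -0.24 (SE 0.13, adjusted p 0.126 in limma) and 0.33 (SE 0.14, adjusted p 0.0559 in limma). Slc6a6 passed as lower with library size (-0.72), the upper quartile (-0.47), the pan-neuronal genes held level (-0.80) and without IP 2 (-0.35). Slc6a8 passed as higher with the length offset (0.63), without IP 2 (0.40), without Input 2 (0.42) and without pool 2 (0.49). The genes that make creatine and taurine did not move as 1 group. Gatm, the first enzyme of creatine synthesis, was depleted at -2.24 (SE 0.12), whereas Cdo1, an early enzyme of taurine synthesis, was higher at 0.99 (SE 0.11) and Csad, the next enzyme, at 0.32 (SE 0.11). Slc17a5 (sialin), which exports sialic acid from lysosomes, had 402, 324 and 253 in IP libraries against 265, 237 and 241 in Input libraries, with a log2 fold change of 0.37 (SE 0.18, adjusted p 0.0853 in limma) that did not pass. It passed at 0.54 without IP 3, at 0.53 without pool 3 and at 0.55 with the length offset.

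Little or no RNA was seen for the carriers of gut, kidney and liver. Slc17a1, Slc17a2, Slc17a3 and Slc17a4, a cluster of phosphate and organic anion carriers on chromosome 13, and Slc6a14 and Slc6a18, amino acid carriers of epithelia, were listed at 0 in all 6 libraries. Together with Slc1a7, Slc6a2 and Slc6a5 they make up the 9 members at 0 throughout. Slc6a19, the neutral amino acid carrier of gut and kidney, had 0, 2.3 and 0 in IP libraries against 8.65, 11.1 and 6.9 in Input libraries. Slc6a21, a further relative of unknown substrate, had 0 in all IP libraries against 1.74, 0 and 0 in Input libraries. These and Slc6a12, Slc17a9, Slc18a1 and Slc6a4 are the 6 members above 0 that could not be tested.

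Ordered by level per kilobase, the members ran differently in IP and in Input. In IP the order began with Slc17a7 at 603 ± 194, Slc1a1 at 443 ± 68.7, Slc32a1 at 377 ± 37.2, Slc1a3 at 222 ± 69.4 and Slc6a15 at 168 ± 22.7 per kilobase (SD, n = 3). In Input it began with Slc17a7 at 2162 ± 736, Slc1a3 at 1354 ± 135, Slc6a9 at 300 ± 53.5, Slc1a1 at 298 ± 8.86 and Slc1a2 at 245 ± 47.2 per kilobase (SD, n = 3). Between neighbours in the IP order, the ranges of 1 SD were apart for Slc32a1 and Slc1a3 and overlapped for the other pairs. In the Input order they were apart for Slc1a3 and Slc6a9 and overlapped for the other pairs. Slc32a1 stood lower in Input, at 203 ± 38.5 per kilobase. These orders rest on the longest transcript of each gene, 11.6 kilobases for Slc1a2 and 3.8 for Slc1a1. Before that division, the mean value in Input was 2845 for Slc1a2 and 1133 for Slc1a1.

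Which members counted as higher depended on how the libraries were scaled to each other. Under the authors' scaling the median of all tested genes was -0.06, against -0.54 when each library was divided by its sum and -0.62 when the pan-neuronal genes were held level. With the first of these, 3 members were higher and 12 lower, against 17.3% and 53.1% of all tested genes, and with the other 2 were higher and 13 lower, against 14.6% and 55.9%. With an offset for transcript length, 7 were higher and 7 lower, against 31.1% and 25.4% of all tested genes, and Slc17a6, Slc6a15 and Slc1a4 were no longer called lower. Slc17a5, Slc6a8 and Slc6a17 were then called higher. Slc17a7, Slc6a11, Slc1a2, Slc1a3 and Slc6a9 stayed depleted in all 21 alternatives, and Slc6a13 in the 20 in which it was tested. Slc6a7 stayed lower, and Slc18a2 and Slc6a16 stayed higher, in all 21, but neither of the last 2 was over 2-fold with library size or with the pan-neuronal genes held level. Slc32a1 kept its call in 20 of 21.

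**Figure D5:**
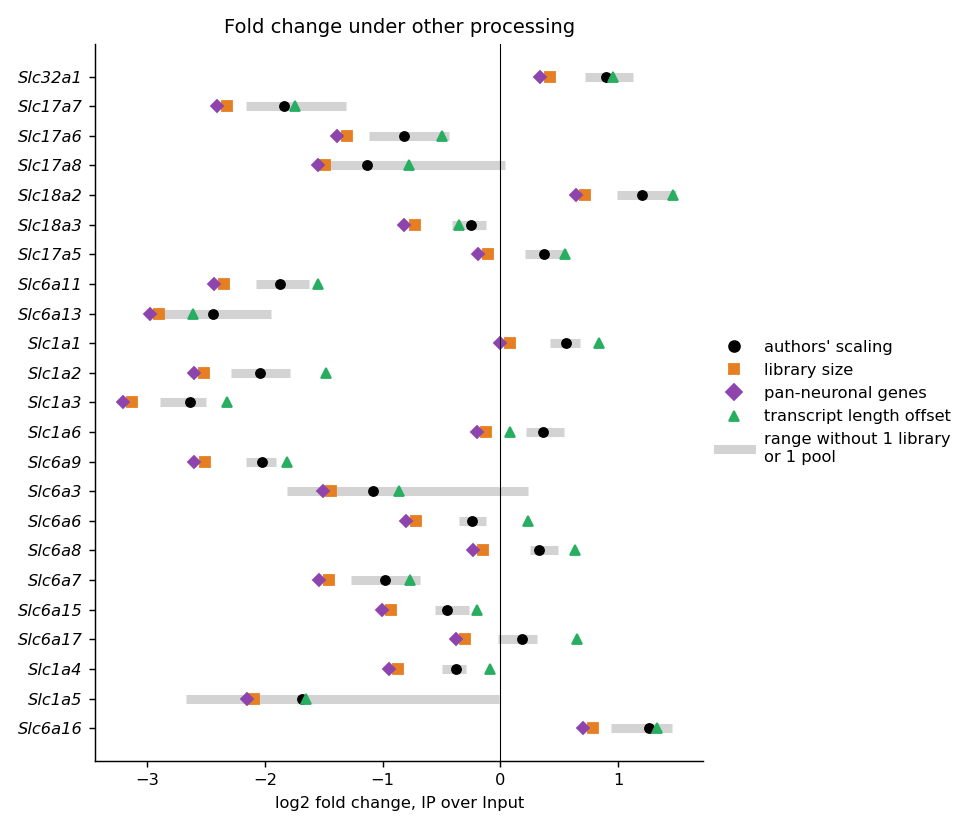
Log2 fold change, IP over Input, of the 23 tested genes under the authors' scaling (black), 2 other scalings and an offset for transcript length, with a grey bar for the range when 1 library or 1 pool was left out. Slc18a2 and Slc6a16 stay to the right of 0 under every setting drawn, whereas Slc1a1 reaches -0.004 with the pan-neuronal genes held level.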

How the data were processed

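Polysomal RNA (IP) and tissue RNA (Input) of 3 pools of mice were amplified with a SMARTer Ultralow kit and sequenced on an Illumina HiSeq2500. The authors deposited 1 signal value per gene and library, which is a number of reads scaled by DESeq2, not logged and not whole. STAR, DESeq2 and the build mm10 stand in the submitters' processing notes, while the study's methods name TopHat and Cufflinks for its own enrichment table. The versions, the counting program, the annotation and any strand setting were not given in the sources used here. Of the 24972 entries of a file, 26 carried a date in place of a symbol (0.188% to 0.32% of a library's sum) and were left out.

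The value of 1 read varied between genes, so no count model was used. IP and Input were compared genome-wide in limma 3.58.1 (R 4.3.3) on log2(value + 1), with a variance that follows the mean, no term for the pool and Benjamini-Hochberg adjustment over the 14859 genes that reached a value of 10 in 3 or more libraries. The sums stand for about 9.89e+06 to 1.09e+07 reads per IP library and 9.32e+06 to 9.81e+06 per Input library, and changes of genes with values near 1 are understated on this scale. The 3 libraries of a group are separate pools. Ratios between genes were compared with exact two-sided permutation tests. Values were divided by the length of the longest transcript in GENCODE M21 basic, which held 24464 of the names as written and all 38 members, with 74 further names found through synonyms. The code was tested on simulated data.

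An Input was saved before each pull-down according to the protocol in the labels, while the titles give only replicate numbers, and the same number was taken as the same pool. The alternatives were the pool as a replicate block, 4 other scalings (library size, upper quartile, a trimmed mean of M-values, the pan-neuronal genes), an offset for transcript length, 3 other filters, 2 other pseudocounts, a variance without trend, and leaving out each library and each pool. The plan took the trimmed mean from a count package, and it was computed with separate code here.

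The members and gene lists were chosen with earlier results of these data known. 1 further gene that fits the name rule is not reported here, nor are some genes of the lists and results that need them. Every other member is named, with values per library for those enriched or depleted, the highest per role, and the carriers of transmitters. From each list counts, the median and the 2 tested genes with the largest change were to be given. This was not kept for every list, and further genes were named after their values had been seen. Promoters came from RefSeq on GRCm38.p6, python 3.11.15 and pandas 2.3.3 were used for tables, and figures were drawn with matplotlib 3.10.9.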

Additional observations from a re-analysis of the deposited data

How the results depend on the processing

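With the pool as a replicate block, 4 members were higher and 10 lower, as without it, and the block changed no call of a member. Across genes, the deviations of same-numbered libraries from their group means had correlations of 0.109, 0.095 and 0.0992, against -0.0826 to -0.0133 for different numbers, a hint from the data and not from the design. Among members, the number higher was 2 with the pan-neuronal genes held level and 7 with the transcript length offset, where 7 were lower. The number enriched was 0 with library size, 1 with the upper quartile and 0 with the pan-neuronal genes held level, and 9 were depleted in the last of these. Leaving out 1 library or 1 pool gave 1 to 3 enriched members, 4 to 5 higher and 8 to 11 lower. With a filter of 1 in 3 libraries, 12 of 27 tested members were lower, against 5064 of all 16979 tested genes. With no filter, 12 of 29 were lower, against 5047 of 18644. The added members were Slc6a12 and Slc6a19 in both cases. Both were at or near 0 in IP and reached the filter of 1 through Input, so their calls add nothing to their values. Among all tested genes, library size and the pan-neuronal genes gave 2577 and 2169 higher, 7886 and 8311 lower, and 4554 and 5018 depleted. Enriched genes were 671 with library size, 1234 with the upper quartile, 568 with the pan-neuronal genes and 1043 with the length offset. Of all genes called, 49.4% were higher under the authors' scaling, against 24.6%, 36.7% and 20.7% with library size, upper quartile and pan-neuronal genes and 55% with the length offset; the median of all genes was -0.54, -0.28 and -0.62 with those 3 scalings and 0.03 with the offset.

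Direction turned for members that had not passed, and for Slc1a1, which was at -0.004 with the pan-neuronal genes held level. With library size, Slc17a5 was at -0.11, Slc1a6 at -0.12, Slc6a8 at -0.15 and Slc6a17 at -0.30, and with the pan-neuronal genes they were at -0.19, -0.20, -0.23 and -0.38, the last past the threshold as lower. Slc6a17 was at -0.05 with the upper quartile, and ran from -0.02 (without pool 2) to 0.31 when 1 library or pool was left out, with -0.01 without IP 2. Slc6a6 was at 0.23 with the length offset, Slc17a8 ran from -1.58 to 0.04 (without IP 1), and Slc6a3 from -1.81 to 0.23 (without pool 1), with 0.21 without IP 1. Where a construction does not show it, the cause of a shift was not tested. With a value of 10 asked in each library, Slc6a13 and the members at 0 in a library were not tested. The ratio of Slc6a9 to Slc6a5 was not computed, because Slc6a5 was listed at 0 throughout. The values of Slc17a8, Slc6a3 and Slc1a5 each moved with 1 library listed at 0, and the cause of that 0 was not tested. A read was worth about 1.72 to 2.3, and the lowest values above 0 were 0.759 to 1.15, depending on the library.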

Other observations

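Among 12 genes related to the members by family or function but outside the rule, 8 were tested. Of these, 1 was higher in IP and 4 lower, against 31.4% and 32.2% of all tested genes. Their median log2 fold change was -0.36. Sv2b, a synaptic vesicle glycoprotein of many glutamatergic endings, had 679, 976 and 852 in IP libraries against 2240, 1974 and 1795 in Input libraries and was depleted at -1.27 (SE 0.13, adjusted p 4.1e-06 in limma). Its relative Sv2a, found at most synapses, was lower by less at -0.27 (SE 0.09). Slc7a11, the cystine and glutamate exchanger, was higher, with 1710, 1556 and 1956 in IP libraries against 1034, 1143 and 1536 in Input libraries (log2 fold change 0.51, SE 0.14, adjusted p 0.00726 in limma). Its partner chain Slc3a2 was lower at -0.46 (SE 0.09). Slc6a20a, a proline and imino acid carrier with a letter after its number that kept it outside the rule, was depleted at -1.46 (SE 0.36, adjusted p 0.00335 in limma). Of 6 tested meningeal fibroblast markers, 5 were depleted, against 17.2% of all tested genes. The part of these cells in the value of Slc6a20a was not tested.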
